A study of Mus musculus with 5 samples.

Results

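The Gli transcription factors and the proteins that restrain them form the last step of Hedgehog signalling, and their transcripts were measured here in mouse medulloblastomas and in postnatal cerebellum. The set held 10 genes: the factors Gli1, Gli2 and Gli3, and the regulators Sufu, Kif7, Spop, Stk36, Prkaca, Gpr161 and Gsk3b. It was made up of every probe set, a group of short probes for 1 transcript, whose only gene symbol in the platform annotation was one of these names. That gave 25 probe sets out of 34945 with 1 symbol, and 10 genes out of 18193. Gsk3b had 6 probe sets, Gli3, Sufu and Spop had 3 each, Gli2, Stk36, Prkaca and Gpr161 had 2 each, and Gli1 and Kif7 had 1. The annotation listed 4 pairs of these probe sets, in Gli2, Sufu, Spop and Gsk3b, each under a shared sequence record. Where on that sequence each probe set lies was not known.

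RNA from 4 mouse medulloblastomas, a tumour of the cerebellum, and from 1 cerebellum labelled P5, read as postnatal day 5, had been hybridised to Affymetrix expression arrays. The labels give no genotype, strain, treatment or sex, and no age for the tumours; the series title concerns tumours of Cxcr6 mutant mice and an inhibitor of Smoothened, but no array is marked as mutant or treated. The comparison is therefore of tumour with P5 cerebellum, and tumour cannot be told apart from age. The titles of medulloblastomas 1 and 2 carry the prefix ken, and those of medulloblastomas 3 and 4 and of the cerebellum carry hmk. What the prefix stands for is not given, and values are also shown within each prefix. The cerebellum had no replicate, so all differences below rest on 1 normal array. Nothing says whether the 4 tumours came from separate animals. The p-values take their spread from the tumour arrays alone and assume that the cerebellum would vary as they do.

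In the developing cerebellum, Purkinje cells secrete Sonic hedgehog, which keeps granule neuron precursors dividing, and medulloblastomas of mice with an overactive pathway arise from these precursors. Without ligand, Sufu holds Gli proteins in check, while protein kinase A, kept active at the primary cilium through Gpr161, marks Gli2 and Gli3 with phosphate groups that lead to their cutting or breakdown. When Smoothened is switched on, Gli2 acts mainly as an activator, the repressor form of Gli3 declines, and Gli1 is transcribed as a target that adds to the output.

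The arrays were comparable in overall signal, with a median over all probe sets between 191 and 213 in the tumours, with 232 in P5 cerebellum. Medulloblastoma 1 had the highest ratio of 3' to 5' signal, 1.45 for actin, against 1.21 to 1.35 on the other 4 arrays, and the part of that ratio in any value below was not tested. Marker lists of the cell types in the tissue are given by limma's calls, where 0.312% of all genes were called higher and 0.177% lower, by the genes with all 4 tumours on 1 side of the cerebellum, where the shares over all genes were 25.1% above and 30.8% below, and by their summed signal. Of 10 genes listed as granule neuron precursor markers, 1 was called higher (Atoh1) and 0 lower. In every tumour 3 of them were above the cerebellum and 4 below it. Their sum, to which Zic1 and Neurod1 gave most in the cerebellum, was 47218 to 50742 in the tumours, with 50514 in P5 cerebellum. Single genes of this list, which may not all be confined to precursors, ran in opposite directions, such as Cxcr4 (1.44 on the log2 scale) against Pax6 (-1.02) and Eomes (-2.10). Of 12 astrocyte and Bergmann glia markers, 2 were called lower (Aldh1l1 and Aqp4) and 0 higher; 7 were below the cerebellum in every tumour, and 4, S100b, Aldoc, Slc1a2 and Sox9, were above it in every tumour. Their sum was 33183 to 41590 in the tumours, compared with 78678 in P5 cerebellum, where Fabp7 alone read 27942. Of 9 microglial markers, 3 were called higher (Ctss, C1qa and Tyrobp) and 8 were above the cerebellum in every tumour, with sums of 16749 to 18574 in the tumours and 6717 in P5 cerebellum. Of 8 meningeal and fibroblast markers, 1 was called lower (Col3a1) and 5 were below the cerebellum in every tumour, with sums of 2752 to 4997 in the tumours and 11599 in P5 cerebellum. Of 9 oligodendrocyte markers, 1 was called higher (Mobp), with 4 above and 1 below the cerebellum in every tumour and sums of 19544 to 39025 in the tumours and 17985 in P5 cerebellum. None of 9 endothelial and 6 Purkinje cell markers was called, although 5 and 2 of them were lower at an unadjusted p under 0.05. All 4 tumours were below the cerebellum at 8 of the endothelial markers, which summed to 2593 to 3697 in the tumours and 7011 in P5 cerebellum. For the Purkinje cell markers this held at 4, with 1 above, and the sums were 6264 to 28290 in the tumours and 37892 in P5 cerebellum. No marker tested read 0 on any array; the lowest signal was 13.7, for Slc6a13, a meningeal marker, in a tumour. In such bulk RNA, fewer cells of a type and less RNA per cell cannot be told apart, and the part of these cell types in the results below was not tested.

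Gli1 and Gli2 lay above the P5 cerebellum in all 4 tumours, and Gli3, Gsk3b, Stk36, Prkaca and Gpr161 lay below it in all 4, each read at its brightest probe set; for Prkaca and Gpr161 this did not hold under every scaling, nor for Gpr161 with its probe sets averaged. Sufu, Kif7 and Spop had tumours on both sides. Under quantile normalization, or with its probe sets averaged, Sufu too lay below the cerebellum in all 4. None of these differences passed the test: 0 of the 10 genes had a Benjamini-Hochberg adjusted p under 0.05 in limma fitted on the 14109 genes whose signal averaged 100 or more, where 0.489% of genes were called. At an unadjusted p under 0.05 the count was 1 of 10, Gsk3b, against 15.2% of all genes. The 7 genes with all tumours on 1 side stand beside a background of 55.9%, the 2 above it beside 25.1%, and the 5 below it beside 30.8%. No member was 2-fold or more from the cerebellum in every tumour, which 2.01% of all genes were upward and 2.63% downward. The median log2 difference of the 10 was -0.28, against -0.07 for all genes tested. With 4 tumours and 1 cerebellum, 0.2 is the smallest p that an exact permutation test allows. Over all genes the calls were 44 higher and 25 lower, or 78 and 20 after scaling to equal medians; the total of 69 became 831 without medulloblastoma 1, 2 without medulloblastoma 2, 16 without medulloblastoma 3 and 0 without medulloblastoma 4, while the count of members called was 0 each time.

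**Figure D1:**
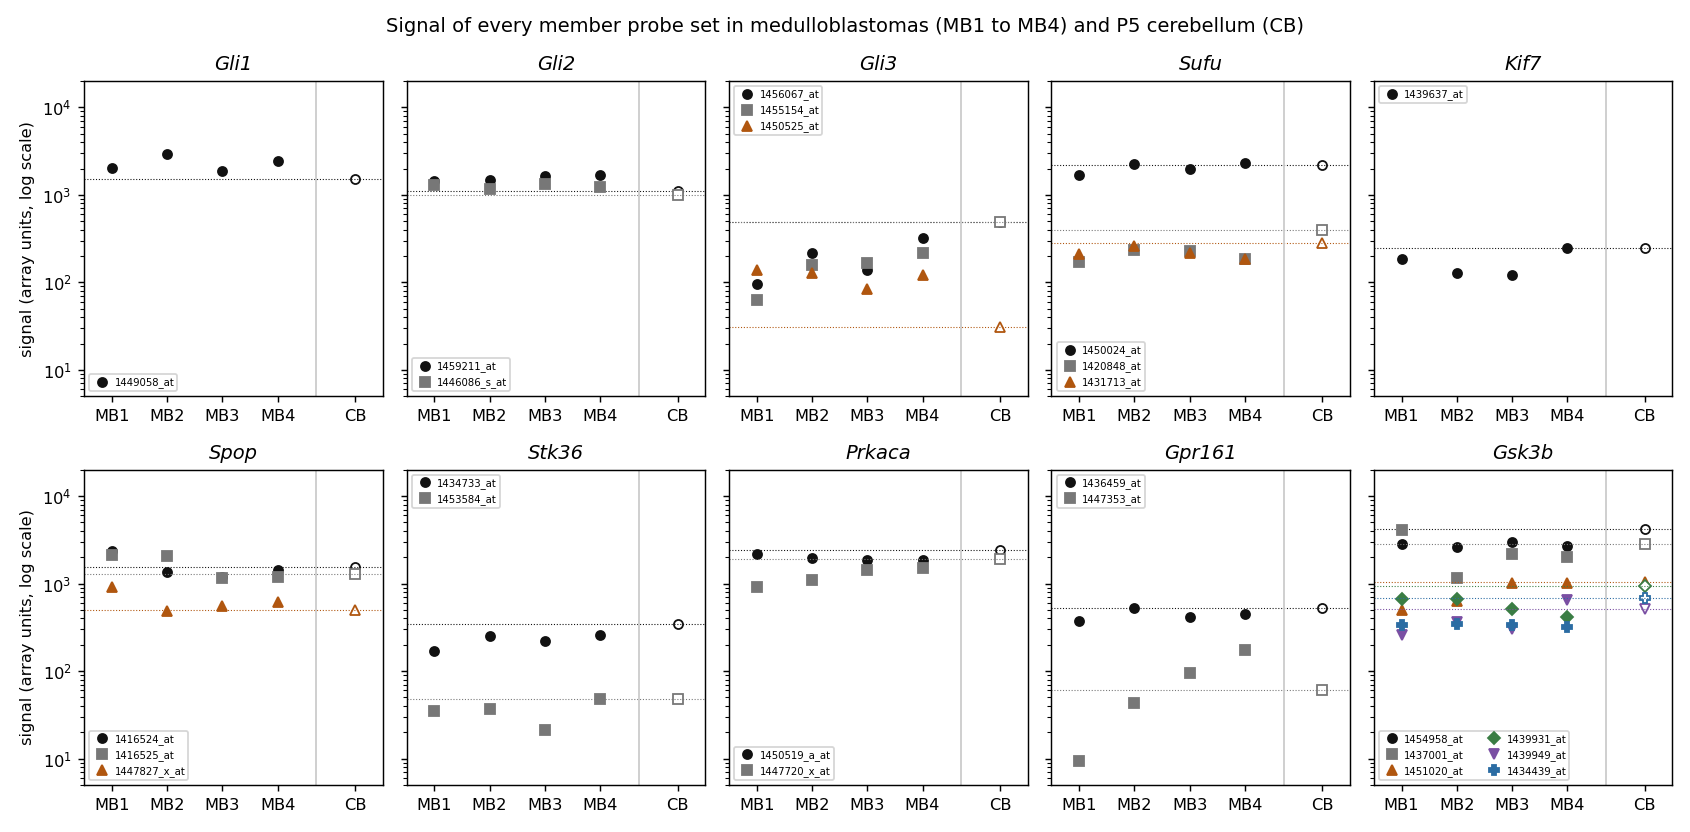
Signal of all 25 probe sets in medulloblastomas 1 to 4 (filled symbols) and the P5 cerebellum (open symbols), 1 panel per gene, on a log axis; dotted lines carry the cerebellum value across. Both Gli2 probe sets sit above their line in all 4 tumours, and the brighter pair of Gli3 probe sets sits below it.

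Gli1, the activator that is itself induced by the pathway, gave signals of 2012, 2962, 1872 and 2436.5 in the 4 tumours in turn and 1510 in P5 cerebellum. The tumours averaged 2320 ± 491 (SD, n = 4), and the lowest of them was 1.24 times the cerebellum. On the scale log2(signal + 32), on which all differences are given, Gli1 differed by 0.59 ± 0.29 (SE; limma, adjusted p = 0.381), with a 95% interval from -0.09 to 1.26. The interval holds 0 and also a more than 2-fold increase. The difference was 0.68 for the ken tumours against the cerebellum and 0.49 within the hmk arrays, so tumours of both prefixes lay above the cerebellum.

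Gli2, the main activator downstream of Smoothened, read 1443, 1471, 1657 and 1697 in the tumours, compared with 1116 in P5 cerebellum at its brighter probe set. At the other it read 1311, 1173, 1320 and 1240 in the tumours, compared with 995 in P5 cerebellum. All 8 tumour readings exceeded the matching cerebellum reading. The probe sets are listed under the same sequence record and read the same RNA samples, so they are no independent measurements. The brighter probe set gave a log2 difference of 0.47 ± 0.24 (limma, adjusted p = 0.382; 95% interval -0.07 to 1.02), and the other gave 0.33. The tumours varied little, with an SD of 0.12 on the log2 scale against a median of 0.31 over all genes tested. Those genes were not matched to Gli2 in signal. The within-prefix values were 0.37 for the ken tumours and 0.57 for the hmk arrays.

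Gli3, which acts mostly as a repressor of Hedgehog targets, was the member furthest from the cerebellum, and its probe sets disagreed. The brightest read 95.7, 219, 139 and 323 in the tumours, compared with 488 in P5 cerebellum, and a second read 63.0, 158, 166 and 214 in the tumours, compared with 492 in P5 cerebellum. At both, every tumour was below the cerebellum and medulloblastoma 1 was the lowest. The third, dim probe set read 138, 127, 83.3 and 120 in the tumours, compared with 31.0 in P5 cerebellum, so there all 4 tumours were higher. Its mean over the 5 arrays was 99.9, just under the 100 needed for testing, and its cerebellum reading is smaller than the 32 that was added to every signal before the log. The log2 differences were -1.31 ± 0.58 (limma, adjusted p = 0.340), -1.60 ± 0.58 (adjusted p = 0.297 in a fit over probe sets) and 1.23 (not tested). With the 3 probe sets averaged the Gli3 difference was -0.56. The 95% interval at the brightest probe set ran from -2.65 to 0.03. Gli3 also spread more than the other 9 genes among the tumours, with an SD of 0.64, and its difference was -1.54 for the ken tumours and -1.08 within the hmk arrays. Of the 12 astrocyte and Bergmann glia markers, 7 were below the cerebellum in every tumour as well and 4 above it, and their part in the Gli3 values was not tested.

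The windows before the starts of Gli2 and Gli3 are shown because these 2 factors, which share their DNA-binding motif, lay on opposite sides of the cerebellum. They are 250 bases long, from the RefSeq promoter table of GRCm38.p6, at chr1:119053620-119053869 on the minus strand for Gli2 and chr13:15463473-15463722 on the plus strand for Gli3. Capitals mark the letters ACCACCC, or GGGTGGT where it lies on the other strand.
Gli2: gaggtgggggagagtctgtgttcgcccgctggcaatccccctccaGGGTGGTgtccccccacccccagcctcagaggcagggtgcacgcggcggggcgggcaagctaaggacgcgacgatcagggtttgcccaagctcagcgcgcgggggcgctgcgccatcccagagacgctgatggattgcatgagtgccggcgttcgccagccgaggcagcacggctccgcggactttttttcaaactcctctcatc
Gli3: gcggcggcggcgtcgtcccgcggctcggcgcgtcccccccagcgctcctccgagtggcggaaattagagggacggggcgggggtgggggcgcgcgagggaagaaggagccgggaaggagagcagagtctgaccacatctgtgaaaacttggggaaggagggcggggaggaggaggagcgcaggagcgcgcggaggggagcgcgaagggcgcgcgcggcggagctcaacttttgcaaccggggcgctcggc
The Gli consensus GACCACCCA, searched on both strands, was in 0.225% of 32851 such windows of the table. It was in 0 of the 11 windows of the 9 members matched by symbol, with Gli1 not searched because it had no window. Its inner 7 letters ACCACCC, which every full match also contains, were in 3.92% of all windows and in 1 of the 11, that of Gli2, starting 205 bases before the start. These are matches of letters only.

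**Figure D2:**
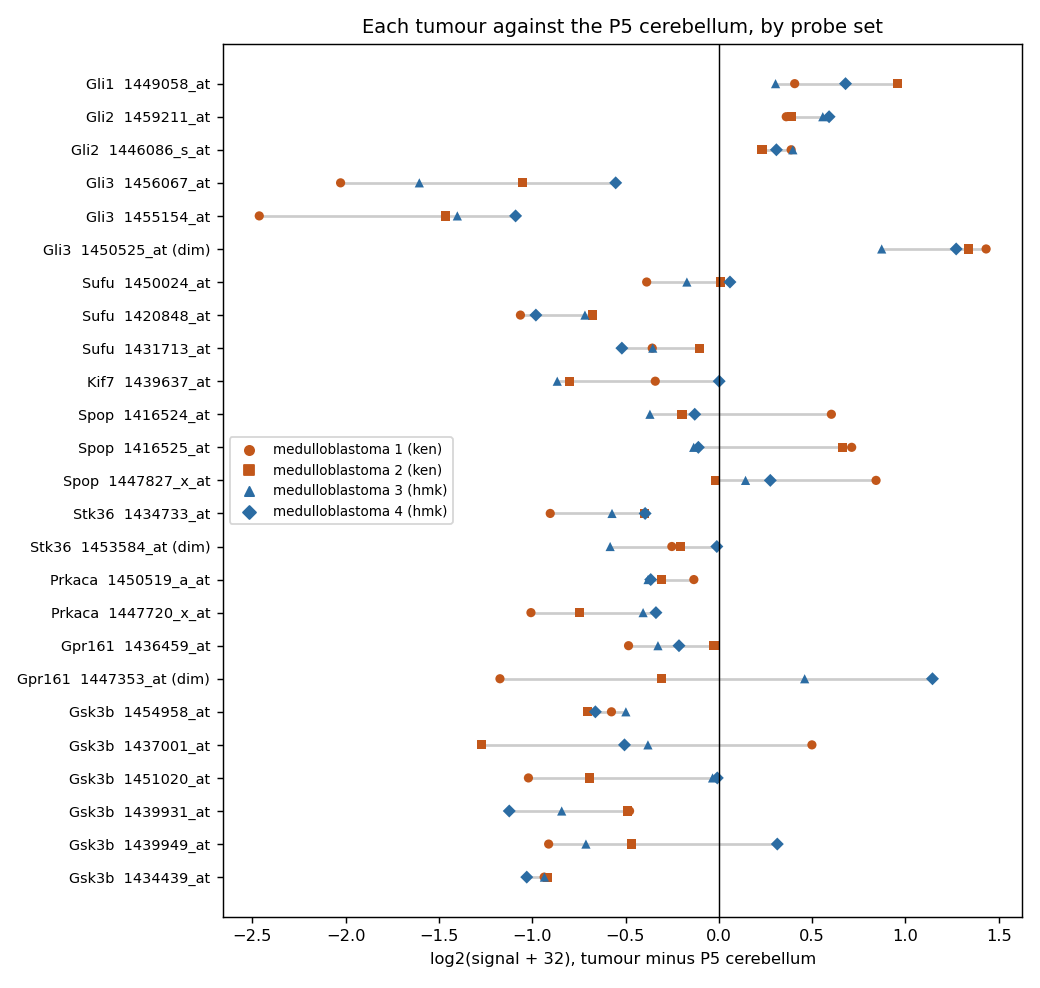
Difference of each tumour from the P5 cerebellum on the scale log2(signal + 32), 1 row per probe set, with the cerebellum at 0 and the ken tumours in orange and the hmk tumours in blue; dim marks a mean signal under 100. The 2 bright Gli3 rows lie wholly left of 0, the dim one wholly right of it, and the second Spop row has the ken tumours right and the hmk tumours left of 0.

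Sufu, which binds Gli proteins and blocks them, showed a difference that depended on the probe set. The brightest read 1684, 2224, 1961 and 2306 in the tumours, compared with 2212 in P5 cerebellum, with 2 tumours on each side and a log2 difference of -0.12 ± 0.25 (limma, adjusted p = 0.844; 95% interval -0.71 to 0.46). A dimmer probe set listed under the same sequence record read 173, 236, 229 and 185 in the tumours, compared with 396 in P5 cerebellum, a difference of -0.86 ± 0.40 (adjusted p = 0.389 in the fit over probe sets). The third was also below the cerebellum in every tumour, at -0.33. Averaged over the 3, the Sufu difference was -0.44, compared with -0.12 at the brightest, and every tumour lay below the cerebellum. With arrays scaled to equal medians the difference at the brightest was 0.07.

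Kif7, the cilium kinesin that corresponds to Costal2 of the fly and organises Gli and Sufu at the cilium tip, read 187, 127, 120 and 245.1 in the tumours, with 244.7 in P5 cerebellum. Medulloblastoma 4 was level with the cerebellum and the other 3 were lower. The log2 difference was -0.50 ± 0.51 (limma, adjusted p = 0.658). Stk36, the counterpart of the fly kinase Fused, read 170, 254, 222 and 255 in the tumours, compared with 346 in P5 cerebellum, a difference of -0.57 ± 0.40 (adjusted p = 0.519). In mice Stk36 is known for its part in motile cilia. Its second probe set stayed under 50 on every array and was not tested.

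Gpr161, the ciliary receptor that keeps cyclic AMP and protein kinase A active, read 370, 520, 417 and 453 in the tumours, compared with 530 in P5 cerebellum. Medulloblastoma 2 was within 2% of the cerebellum, and the log2 difference was -0.26 ± 0.31 (limma, adjusted p = 0.714). A dim second probe set ranged from 9.31 to 174 among the tumours, with 61.1 in the cerebellum. With both averaged the Gpr161 difference was -0.12, and tumours lay on both sides of the cerebellum.

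Prkaca, a catalytic subunit of protein kinase A, read 2192, 1940, 1844 and 1862 in the tumours, with 2408 in P5 cerebellum. Its other probe set, of a kind that can bind related transcripts, read 924, 1112, 1417 and 1488 in the tumours, with 1888 in P5 cerebellum. Both placed every tumour below the cerebellum, by -0.30 ± 0.23 and -0.62 ± 0.32 on the log2 scale (limma, adjusted p = 0.553, and 0.431 in the fit over probe sets). They ordered the tumours differently: the ken tumours were the higher pair at the first and the lower pair at the second. With arrays scaled to equal medians the first difference was -0.10 and the tumours no longer all lay below the cerebellum, which held for Gpr161 too, at -0.08, and for Gpr161 after quantile normalization, at -0.19.

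Gsk3b, a kinase that acts after protein kinase A on Gli proteins and also on beta-catenin, read 2846, 2603, 3005 and 2680 in the tumours, compared with 4257 in P5 cerebellum at its brightest probe set. The tumours averaged 2783 ± 179 (SD, n = 4) and lay close together, with an SD of 0.09 on the log2 scale. The difference was -0.61 ± 0.21 with a 95% interval from -1.10 to -0.12, an unadjusted p of 0.0206 and an adjusted p of 0.255 (limma). The dimmest of the 6, listed under the same sequence record, read 338, 343, 338 and 315 in the tumours, compared with 676 in P5 cerebellum, a difference of -0.95 ± 0.31 (adjusted p = 0.264 in the fit over probe sets). The mean difference was negative at all 6 probe sets, between -0.95 and -0.41, and 4 of the 6 had every tumour below the cerebellum. Of the other 2, one was above the cerebellum in medulloblastoma 1 (4052 against 2859) and one in medulloblastoma 4 (650 against 517). Of the 4, a pair split by prefix in opposite directions. One read 493 and 627 in the ken tumours, 1008 and 1026 in the hmk tumours and 1032 in the cerebellum, and the other read 664 and 659 in the ken tumours, 509 and 413 in the hmk tumours and 937 in the cerebellum.

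Spop, the adaptor through which a Cullin 3 ubiquitin ligase takes up Gli2 and Gli3 for breakdown, had no common direction. Its difference ranged from -0.25 to 0.20 over the alternatives run. At the brightest probe set medulloblastoma 1 read 2386, the other tumours 1356, 1201 and 1424, and the cerebellum 1560, a log2 difference of -0.02 ± 0.37 (limma, adjusted p = 0.982; 95% interval -0.87 to 0.82). A second probe set listed under the same sequence record read 2129 and 2056 in the ken tumours, 1170 and 1191 in the hmk tumours and 1287 in the cerebellum. The third was highest in medulloblastoma 1, at 918, with 492 to 609 in the other tumours and 498 in the cerebellum. Medulloblastoma 1 was thus the highest array at all 3 Spop probe sets; it also had the highest 3' to 5' ratio for actin, whose part in this was not tested.

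**Figure D3:**
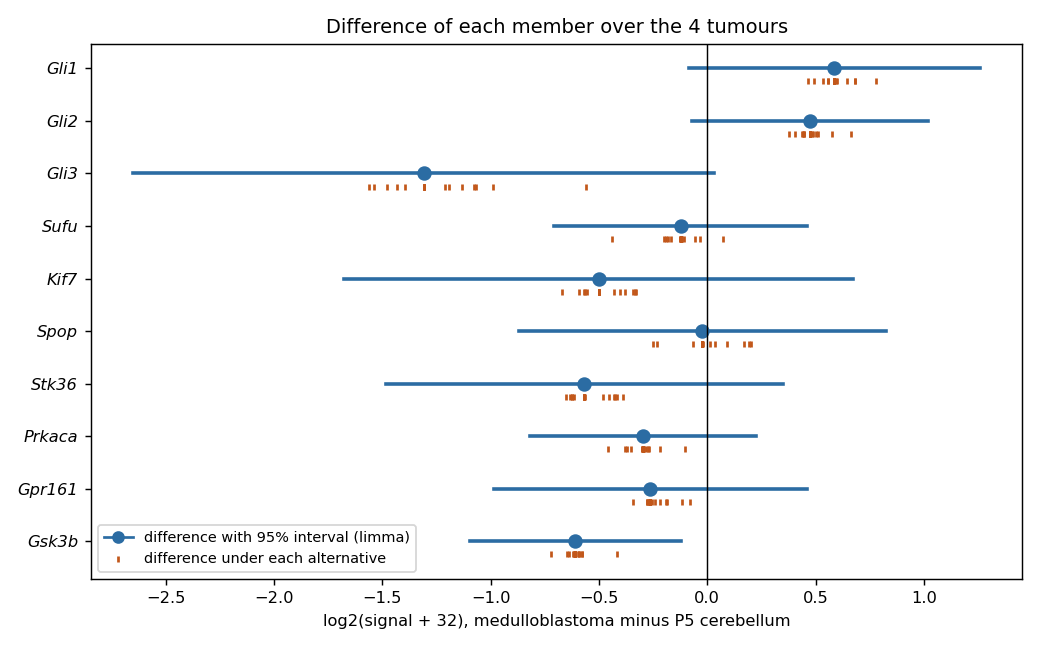
Log2 difference of each gene, medulloblastoma minus P5 cerebellum, with its 95% interval (blue, limma, 4 tumours and 1 cerebellum) and the value under each alternative setting (orange ticks). The interval of Gsk3b alone among the 10 leaves out 0, before adjustment over all genes.

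Among the 22 member probe sets with a mean signal of at least 100, all 4 tumours were above the cerebellum at 3 and below it at 12, where the shares over all such probe sets were 25.4% and 28.4%. None of the 22 was called by limma over probe sets (background 0.248%), and 3 had an unadjusted p under 0.05 (background 13.7%): 1 of Gli3 and 2 of Gsk3b. The ken and hmk tumours did not overlap at 7 of the 22, where 44.5% of all probe sets had no overlap. The ken pair was higher at 3 (background 21.7%) and lower at 4 (background 22.8%). Gli1 was not among the 7.

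**Figure D4:**
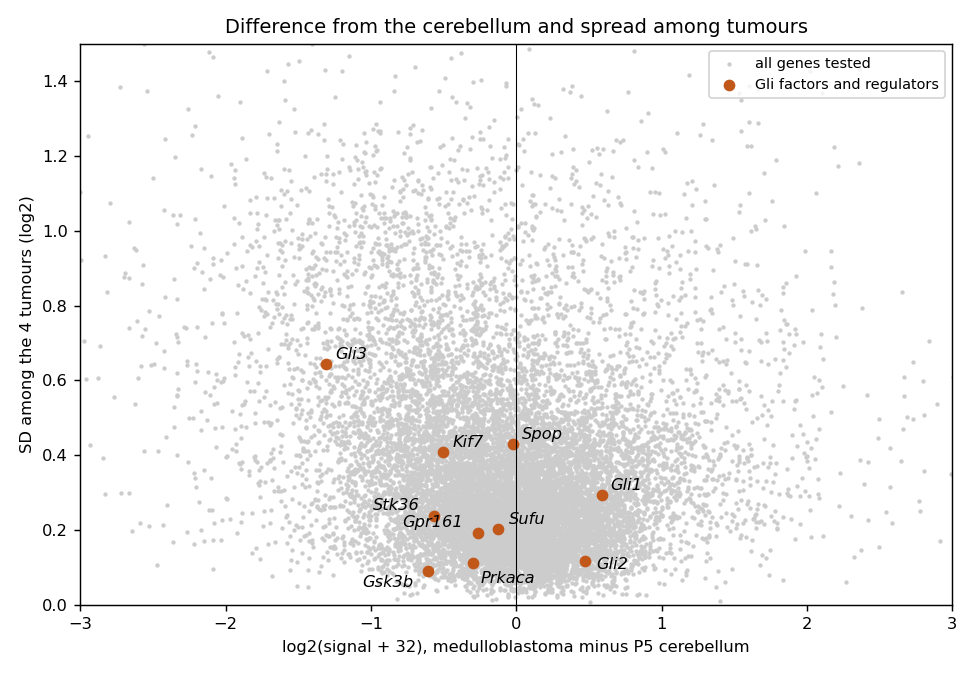
Each gene tested by its log2 difference, medulloblastoma minus P5 cerebellum (horizontal), and its SD among the 4 tumours (vertical), with the 10 members in orange; genes outside the axes are not drawn. Read at their brightest probe sets, Gsk3b, Prkaca and Gli2 have SDs of 0.09 to 0.12, and Gli3 stands apart from the other members at 0.64.

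The rest of the pathway was read from 2 lists. Of 24 Hedgehog target genes, 21 were tested, with a median log2 difference of 0.69; 2 were called higher by limma and 0 lower, against 0.312% and 0.177% of all genes. The 2 were Atoh1, a transcription factor of granule neuron precursors, at 2.81 ± 0.40 (adjusted p = 0.0336), and the cell cycle kinase gene Cdk6 at 2.73 ± 0.39 (adjusted p = 0.0341). Next in size were the cyclin gene Ccnd1 (2.20 ± 0.52, adjusted p = 0.125) and the growth factor gene Igf2 (-1.84 ± 0.49, adjusted p = 0.154). All 4 tumours were above the cerebellum at 11 of the 21 and below it at 3, where the shares over all genes were 25.1% and 30.8%. The 2 calls did not hold in every setting: there were 0 without medulloblastoma 2, 3 or 4, 0 with no filter, with probe sets averaged, with eBayes without a trend or for the ken tumours, and 11 without medulloblastoma 1, counted over this list and the next.

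Of 64 other entries for regulators of Gli or Smoothened, 55 were tested, with a median of -0.06 and 0 called by limma. At an unadjusted p under 0.05, 2 were higher and 5 lower, where 15.2% of all genes passed. All 4 tumours were above the cerebellum at 11 and below it at 19, beside 25.1% and 30.8% of all genes. The 4 furthest were Snai1 (-1.79 ± 0.95), the protein kinase A regulatory subunit gene Prkar2b (-1.45 ± 0.38, adjusted p = 0.147), the intraflagellar transport gene Ift88 (-1.16 ± 0.48) and the kinase gene Dyrk1b (-1.10 ± 0.46). Close relatives of members, singled out after their values were seen, were read beside them. Gsk3a differed by -0.61 ± 0.28, beside -0.61 for Gsk3b. Prkacb, the second catalytic subunit gene of protein kinase A, differed by 0.44 ± 0.23 and was above the cerebellum in every tumour, whereas Prkaca was below it in every tumour. Spopl differed by 0.45 ± 0.35, beside -0.02 for Spop.

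**Figure D5:**
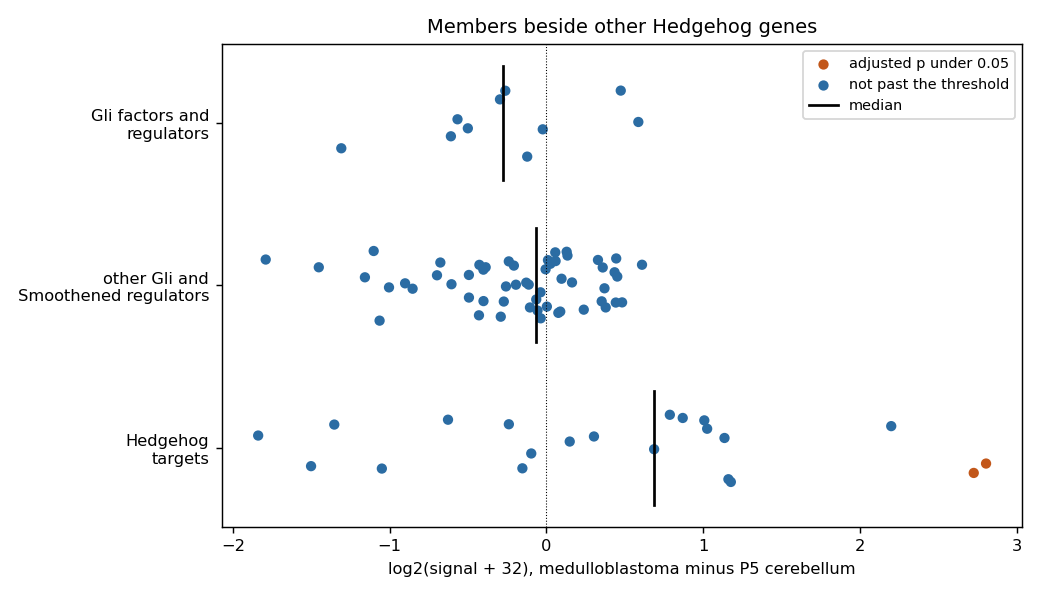
Log2 difference, medulloblastoma minus P5 cerebellum, of the 10 members, 55 other regulators and 21 Hedgehog targets; points are genes, black bars are medians, and orange marks an adjusted p under 0.05 (limma). The medians are -0.28, -0.06 and 0.69, and the 2 orange points are Atoh1 and Cdk6, neither of them called without medulloblastoma 2, 3 or 4.

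Gli1 and the receptor gene Ptch1, both textbook targets of the pathway, were ordered differently among the tumours. Ptch1 was picked after its values were seen. It read 692 and 451 in the ken tumours, 2811 and 2352 in the hmk tumours and 2538 in the cerebellum. Its 2 dimmer probe sets were likewise lower in both ken than in both hmk tumours. Such a split is common: it held at 22.8% of all probe sets with a mean signal of at least 100. It also held at every probe set of the target gene Hhip, picked in the same way. Its brightest read 218 and 178 in the ken tumours, 640 and 370 in the hmk tumours and 121 in the cerebellum. The ken tumours had 2012 and 2962 for Gli1 and the hmk tumours 1872 and 2436.5, which overlap.

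The genes with a pattern most like the Gli factors were found by the root mean square distance between their 4 tumour-minus-cerebellum log2 values. They were Snw1 (0.06), Ivns1abp (0.07) and Plaat3 (0.09) for Gli1. For Gli2 they were Pes1 (0.03), Zkscan5 (0.04) and Commd3 (0.04). Members and clone or prediction names were passed over, and among the rest of the 14109 genes on 5 arrays Gli3 had none as near. Its closest were Gbgt1 (0.19), Olfr49 (0.23) and Ms4a3 (0.24). The distance is not scaled to a gene's spread among the tumours, which was largest for Gli3 among the members at their brightest probe sets.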

How the data were processed

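Signals of 45101 probe sets on 5 arrays were used as deposited: intensities on a linear scale, made by the authors with MAS5 per the submitters' processing notes (for medulloblastoma 3 the tool is not given in the sources used here). Each array's mean without the top and bottom 2% of probe sets was 500.002. The labels name a Trizol extraction for all arrays but medulloblastoma 4. Control probe sets (64) and those with several symbols (932) or none (9160) were left out. Symbols were matched by Entrez ID to RefSeq genes of GRCm38.p6 (34741 matched, 0 changed).

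Each gene was read at its brightest probe set over the 5 arrays, kept if that averaged at least 100, and tested on log2(signal + 32) with limma 3.58.1 in R 4.3.3 (lmFit, eBayes with trend, two-sided, Benjamini-Hochberg over 14109 genes). The spread has 3 residual degrees of freedom, all from the tumours, plus 5.02 from the prior; the cerebellum is assumed to vary like the tumours. The number of arrays limits the precision. The procedure was tested on simulated data in which the cerebellum varied like the tumours, so that assumption itself was not tested.

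The members, lists and tests were chosen with earlier results of these data known. Named were all members with every probe set, in 2 Hedgehog lists the called genes and the 4 furthest, and the 3 genes most like each Gli factor, passing over clone and prediction names. Alternatives changed the scaling, constant, filter, probe set choice, variance trend, threshold and arrays.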

Additional observations from a re-analysis of the deposited data

Results flagged for a closer look

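Among the 25 member probe sets, a gap within the 4 tumours wide enough to single out an array occurred once, where chance gives about 1 in 20. It was at the dimmest Gsk3b probe set, where medulloblastoma 4 (315) lay apart from the other tumours (338 to 343) by 0.836 of the tumours' range on the log2 scale; the range itself was narrow, and the cerebellum read 676. At 2 of the 25 probe sets both ken tumours lay on one side of the cerebellum and both hmk tumours on the other. The share of all probe sets that do so was not counted, so this may be ordinary. The ken and hmk tumours did not overlap at 44.5% of all probe sets with a mean signal of at least 100. At the second brightest Spop probe set the ken tumours were higher than the hmk tumours by 0.809 on the log2 scale. At the dim Gpr161 probe set, ken minus hmk was -1.54. These differences were not tested, and the labels do not say what the prefix stands for.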

How the results depend on the processing

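The count of members called was 0 under every alternative run, an adjusted p under 0.1 included. Gli1 and Gli2 stayed above the cerebellum in all tumours used, and Gli3, Gsk3b and Stk36 below it, in every alternative. Most alternatives could not have changed this. Another constant, filter, trend or threshold, or fewer tumours, leaves each tumour on its side of the cerebellum. Only another scaling or probe set choice could move it, and the fit over probe sets read these genes at the brightest probe set again. The 7 members on 1 side held Sufu in place of Gpr161 under quantile normalization and with probe sets averaged. The 7 became 15 probe sets when probe sets were counted, and 5 members with arrays at equal medians. Under that scaling the median over all genes was 0.12 instead of -0.07. Relative to those medians Gli1 differed by 0.65 and 0.66, Gli3 by -1.24 and -1.25. Directions that turned were those of Sufu (0.070 with equal medians) and Spop (0.17 with equal medians, 0.19 with probe sets averaged, 0.20 for the ken tumours, and -0.23 to 0.092 with 1 tumour left out); the cause was not tested. The 69 genes called became 26 with no filter, 28 with probe sets averaged, 1678 in the hmk arrays, 37 for the ken tumours, 163 at an adjusted p under 0.1, and 0 to 831 with 1 tumour left out. They were 0 with eBayes without a trend, where 908 genes higher and 1099 lower had an unadjusted p under 0.05; without medulloblastoma 4 these were 806 and 896. A fit to 1 prefix takes its spread from 1 pair of tumours. The 2 other Hedgehog genes called became 15 in the hmk arrays, 0 with no filter, with averaged probe sets, without a trend or for the ken tumours, and 0 to 11 with 1 tumour left out. Kif7 had no value at a mean signal of at least 200. No paired analysis was possible because there is 1 cerebellum and the labels carry no replicate numbers.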
